A study of Mus musculus with 6 samples.

Results

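The genes described here are 9 markers and regulators of lymphoid-primed progenitors, followed by symbol in a bulk RNA-seq count table of mouse bone marrow. All 9 symbols, Flt3, Cd27, Cd53, Ccr9, Il12a, Satb1, Notch1, Mn1 and Ly6d, were found by Ensembl identifier among the 47729 genes of the table, and all 9 were among the 15686 genes with enough reads to be tested. The study set 3 libraries of cluster KO mice, which lack the SNORD113-114 cluster of small nucleolar RNAs, against 3 libraries of wildtype mice. The cluster lies in the imprinted Dlk1-Dio3 domain, and the title of the series places it in stem cell self-renewal. All libraries came from whole cell extracts of bone marrow, with no treatment in the labels. The sources used here do not give the strain, age or sex of the mice, the extent of the deletion or any sorting of cells. The design names 3 mice of each genotype, but the labels do not tie a library to an animal, so p-values measure only the spread between these libraries, which may be technical.

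Lymphoid-primed multipotent progenitors arise from hematopoietic stem cells and still form lymphoid and myeloid cells, while their capacity to form platelets and red cells is reduced. They carry high levels of the receptor tyrosine kinase FLT3 on their surface and start to transcribe genes of the lymphoid lineages before commitment. Some of their descendants become common lymphoid progenitors, among which LY6D marks those directed to the B lineage, and others settle the thymus, where chemokine receptors such as CCR9 guide homing and NOTCH1 signalling directs T cell fate. In bulk samples, a larger share of cells of a type and more RNA per cell cannot be told apart.

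Libraries held between 17663369 and 23459168 reads on genes. Levels are given as CPM, the read count scaled to library sizes adjusted by TMM, the trimmed mean of log ratios between libraries. Where no read was counted, the upper limit at 95% confidence is 3 counts, or 0.126 to 0.17 CPM, for counting error only. The 23 small nucleolar RNA genes that lie between Rian and Mirg, where the cluster is, had 0, 0 and 0 counts in cluster KO libraries and 0, 0 and 1 in wildtype libraries. Rian itself had 9, 6 and 3 counts in cluster KO and 11, 5 and 38 in wildtype libraries, which overlap. With these counts the poly(A) libraries do not check the deletion. Globin genes took 0.0217 to 0.0331% of the counts in cluster KO and 0.0369 to 0.0859% in wildtype libraries, while the progenitor receptor gene Kit averaged 279.3 CPM in cluster KO and 353.8 CPM in wildtype libraries. Reads outside genes made up 7.29 to 10.1% of all reads in cluster KO and 10.03 to 11.1% in wildtype libraries, and rRNA genes took 0.251 to 0.614% of the counts in cluster KO and 0.998 to 1.44% in wildtype libraries. The part of these library differences in the changes described here was not tested.

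The promoters of 4 of the 5 genes that rose are shown because these genes all differed between the genotypes. Each is the run of 250 bases before the RefSeq transcription start (build GRCm38.p6) that lies nearest to the annotated gene start, written 5′ to 3′ on the strand of the gene, with GGAA on either strand, the core that ETS family factors such as PU.1 bind, in capitals. Flt3 lies on the minus strand (chr5:147400490-147400739), as do Cd27 (chr6:125237028-125237277) and Cd53 (chr3:106790150-106790399), and Il12a lies on the plus strand (chr3:68690394-68690643).
Flt3: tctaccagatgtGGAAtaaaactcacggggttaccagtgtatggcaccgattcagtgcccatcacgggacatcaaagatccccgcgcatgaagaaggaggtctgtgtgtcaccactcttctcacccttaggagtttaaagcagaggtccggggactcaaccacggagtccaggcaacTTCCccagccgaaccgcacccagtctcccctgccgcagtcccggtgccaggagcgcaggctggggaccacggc
Cd27: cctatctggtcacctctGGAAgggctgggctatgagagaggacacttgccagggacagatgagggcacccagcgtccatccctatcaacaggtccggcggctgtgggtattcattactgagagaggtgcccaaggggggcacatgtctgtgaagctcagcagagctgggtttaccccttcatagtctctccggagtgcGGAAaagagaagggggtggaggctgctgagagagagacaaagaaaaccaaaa
Cd53: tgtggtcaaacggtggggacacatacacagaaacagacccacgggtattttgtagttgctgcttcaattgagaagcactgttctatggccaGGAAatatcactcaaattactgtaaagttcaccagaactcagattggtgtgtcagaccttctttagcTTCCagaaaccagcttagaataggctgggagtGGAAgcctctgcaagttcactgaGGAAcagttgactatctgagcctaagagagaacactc
Il12a: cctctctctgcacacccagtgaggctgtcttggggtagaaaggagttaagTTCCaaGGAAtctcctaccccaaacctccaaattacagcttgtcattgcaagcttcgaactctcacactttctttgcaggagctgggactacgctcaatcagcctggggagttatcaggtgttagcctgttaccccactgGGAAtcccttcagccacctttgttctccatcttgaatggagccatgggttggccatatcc

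GGAA matched 2 times before Flt3, 2 before Cd27, 4 before Cd53 and 3 before Il12a. Among the 3 other genes with a RefSeq window it matched 4 times before Satb1, 4 before Notch1 and 1 time before Ccr9. Of 32851 windows of the same length, 93.4% held it, with a median of 3 matches, so its presence was common to nearly all promoters. CANNTG, the E-box, matched 1, 3, 2 and 1 times before Flt3, Cd27, Cd53 and Il12a and is in 66.2% of windows. TGGGAA, which contains GGAA and is shared by Ikaros and RBPJ sites, matched 1 time before Il12a and is in 21.6% of windows, and TGTGGT, the Runx core, matched 1 time before Cd53 and is in 14%. TATAAA matched in none of the 7 windows and is in 12.4% of all. All motifs were searched on both strands, and a match describes the letters only. Ly6d and Mn1 had no RefSeq window in the table used.

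Of the 9 genes, 5 rose in cluster KO marrow and 0 fell: Flt3, Cd27, Cd53, Il12a and Ly6d (edgeR quasi-likelihood test, Benjamini-Hochberg adjusted p under 0.05 over all tested genes). Their rises lay between 1.92-fold for Flt3 and 3.16-fold for Cd53. Ccr9, Satb1, Notch1 and Mn1 did not pass. Across all tested genes 15.9% were called higher in cluster KO, 12.1% lower and 27.9% in either direction, and the median log2 fold change was 0.00, against 0.94 over the 9 genes. With upper-quartile scaling the median of all genes shifted by -0.10 and 46.6% of all called genes were higher, against 56.8% with TMM, and the 5 calls held. In the same 5 genes every cluster KO library lay above every wildtype library, which was true of 22.9% of all tested genes. Summed over the 9 genes, the normalised read count was 703.7, 699.9 and 718.7 CPM in cluster KO libraries and 329.5, 301 and 345.2 CPM in wildtype libraries.

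**Figure D1:**
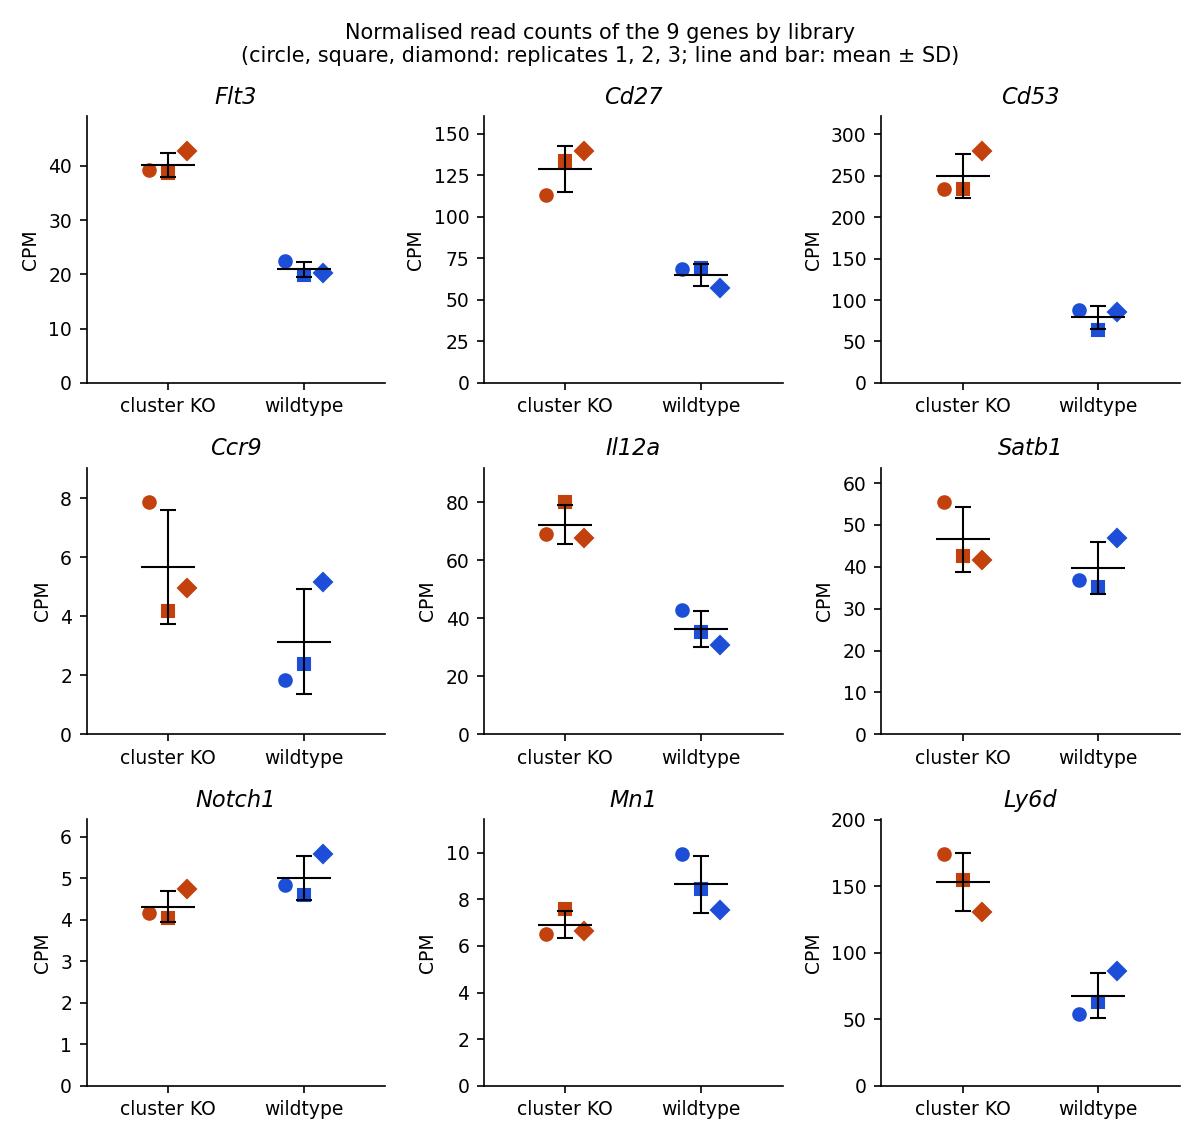
Normalised read counts (CPM, linear axes from 0) of the 9 genes in each library, with cluster KO on the left and wildtype on the right of each panel, and the mean ± SD over 3 libraries as line and bar. The genotypes are apart for Flt3, Cd27, Cd53, Il12a and Ly6d, and the libraries overlap for Ccr9, Satb1, Notch1 and Mn1.

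Among the receptors, Flt3 encodes the tyrosine kinase that receives FLT3 ligand and sustains lymphoid and dendritic cell progenitors. Flt3 (chromosome 5, 147330741 to 147400489, GRCm38, minus strand) was at 39.2, 38.6 and 42.7 CPM in cluster KO libraries and 22.5, 19.9 and 20.3 CPM in wildtype libraries. Its spread was the smallest of the 9 genes, with a coefficient of variation of 5.52% in cluster KO and 6.62% in wildtype, and the genotypes did not overlap. By edgeR it rose by 0.94 on the log2 scale, with an SE of 0.15 and an adjusted p of 0.00297. An antisense gene, Gm26597, lies across the start of Flt3 without sharing exon bases and had 46, 65 and 44 counts in cluster KO and 28, 11 and 14 in wildtype libraries.

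Cd27 encodes a TNF receptor family member that binds CD70, and it marks multipotent progenitors that have left the long-term stem cell state as well as mature T cells. Cd27 (chromosome 6, 125232622 to 125237010, minus strand) had 113.4, 133.7 and 139.6 CPM in cluster KO libraries against 68.4, 69.1 and 57.4 CPM in wildtype libraries. The lowest cluster KO library was well above the highest wildtype library, and by edgeR the rise was 0.99 on the log2 scale, with an SE of 0.13 and an adjusted p of 0.00227. The microRNA gene Mir8113 shares 129 exon bases with Cd27 and had 0 counts in each library. Cd70, the ligand gene, had 0 counts in each of the 6 libraries, again with a limit of 3 counts.

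Ccr9 encodes the receptor for CCL25, which draws progenitors to the thymus and lymphocytes to the gut. Ccr9 (chromosome 9, 123678439 to 123784330, plus strand) was low, at 7.86, 4.17 and 4.97 CPM in cluster KO libraries and 1.86, 2.38 and 5.18 CPM in wildtype libraries. Wildtype replicate 3 lay above 2 of the 3 cluster KO libraries, and the difference did not pass (edgeR, log2 fold change 0.85, SE 0.43, adjusted p = 0.16). The value was 1.42 without wildtype replicate 3 (adjusted p = 0.0514) and 0.54 without cluster KO replicate 1 (adjusted p = 0.389). Ccr9 has exon bases in common with Slc6a20a, Gm17200 and AC165425.1, and without strand their reads cannot be told apart there. Ccl25, the ligand gene, averaged 16.3 CPM in cluster KO and 16.7 CPM in wildtype (edgeR, log2 fold change -0.04, SE 0.21, adjusted p = 0.91).

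Notch1 encodes the receptor that directs T lineage fate in the thymus. Notch1 (chromosome 2, 26457903 to 26516663, minus strand) had only 91, 96 and 102 reads in cluster KO and 107, 81 and 109 in wildtype libraries, or 4.16, 4.04 and 4.74 CPM in cluster KO against 4.84, 4.59 and 5.59 CPM in wildtype. The libraries overlapped and the log2 fold change of -0.22 had an SE of 0.27 (adjusted p = 0.576), so the difference was smaller than its error. Exons of 0610009E02Rik and Gm13568 overlap Notch1 on the other strand and together had fewer reads than Notch1 in every library.

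Cd53 and Ly6d encode surface proteins used as markers. CD53 is a tetraspanin found on nearly all white blood cells, where it organises receptors in the membrane. Cd53 (chromosome 3, 106759921 to 106790149, minus strand) was at 234.1, 234.6 and 279.9 CPM in cluster KO libraries and 88.2, 63.4 and 85.4 CPM in wildtype libraries. Each cluster KO library had more than the sum of any 2 wildtype libraries, and its rise by edgeR of 1.66 on the log2 scale (SE 0.15, adjusted p = 0.000442) was higher than that of 97.4% of all tested genes. No other annotated gene overlaps Cd53.

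LY6D is a small GPI-anchored protein of the LY6 family that splits common lymphoid progenitors into those that keep all lymphoid fates and those set on the B lineage, and it stays on early B cells and appears on some plasmacytoid dendritic cell precursors. Ly6d (chromosome 15, 74762056 to 74763620, minus strand) had 174.2, 154.8 and 130.7 CPM in cluster KO libraries and 53.8, 62.6 and 86.2 CPM in wildtype libraries. The groups did not overlap, although the wildtype libraries varied more than for the other risen genes, with a coefficient of variation of 24.8%. By edgeR it rose by 1.18 on the log2 scale, with an SE of 0.18 and an adjusted p of 0.00297. It is not overlapped by another annotated gene.

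Il12a encodes the alpha subunit that pairs with IL12B to form IL-12 and with EBI3 to form IL-35. Il12a (chromosome 3, 68690644 to 68698547, plus strand) was at 68.9, 79.9 and 67.7 CPM in cluster KO libraries and 42.9, 35.4 and 30.6 CPM in wildtype libraries, without overlap (edgeR log2 fold change 0.99, SE 0.16, adjusted p = 0.00327). Of its partners, Il12b had 1, 0 and 0 counts in cluster KO and 0, 0 and 0 in wildtype libraries, too few for the test. Ebi3 rose, at 48.3, 57.8 and 55.9 CPM in cluster KO libraries against 22.7, 25.99 and 19.5 CPM in wildtype libraries (edgeR, log2 fold change 1.25, SE 0.16, adjusted p = 0.00194). Each library thus held reads of both Il12a and Ebi3, while those of Il12b were near or at 0. Bulk samples cannot tell whether the same cells transcribe both genes.

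Satb1 and Mn1 encode nuclear regulators. SATB1 organises chromatin loops and is needed for T cell development and lymphoid potential. Satb1 (chromosome 17, 51736187 to 51833290, minus strand) was at 55.4, 42.6 and 41.6 CPM in cluster KO and 36.9, 35.3 and 46.9 CPM in wildtype libraries. The genotypes overlapped, and the log2 fold change of 0.23 had an SE of 0.17 (adjusted p = 0.348); it was 0.08 without cluster KO replicate 1, 0.15 without wildtype replicate 2, 0.37 without wildtype replicate 3, 0.13 with upper-quartile scaling and 0.39 with an offset for transcript length and GC content. Mn1, a transcriptional coregulator that drives myeloid leukaemia in mice when overexpressed, lies on chromosome 5 (111417362 to 111457033, plus strand). It was at 6.53, 7.58 and 6.64 CPM in cluster KO against 9.95, 8.44 and 7.53 CPM in wildtype libraries, with overlap in 1 pair of libraries (edgeR, log2 fold change -0.32, SE 0.23, adjusted p = 0.32). The values of Notch1 and Mn1 were -0.03 and -0.04 with that offset, and Mn1 is the most GC-rich of the 9 genes, with 61% GC in its transcript.

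**Figure D2:**
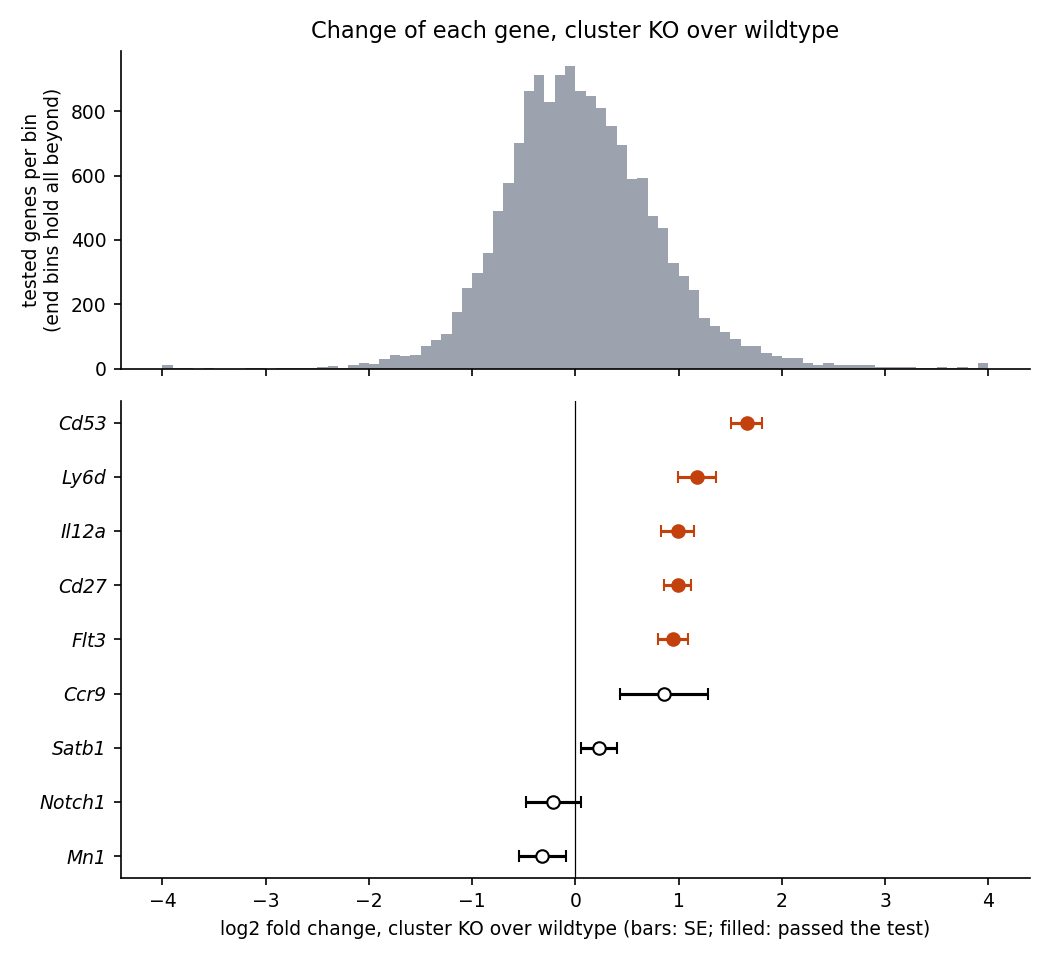
Log2 fold change (cluster KO over wildtype) of the 9 genes with its SE, in the lower panel, under the distribution over 15686 tested genes in bins of 0.1, whose end bins hold all genes beyond 4 in size. The 5 filled points, from 0.94 for Flt3 to 1.66 for Cd53, passed the test and the 4 open ones did not.

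The genes did not all follow the same libraries within a genotype. Ly6d, Satb1 and Ccr9 were each highest in cluster KO replicate 1 among the cluster KO libraries and in wildtype replicate 3 among the wildtype libraries. Cd27 and Cd53 were highest in cluster KO replicate 3 among the cluster KO libraries. Cd27 was lowest in cluster KO replicate 1, while Cd53 was nearly equal in cluster KO replicates 1 and 2, at 234.1 and 234.6 CPM. Among the wildtype libraries, Cd27 and Il12a were lowest in wildtype replicate 3. By the root mean square difference in centred log2 CPM over the 6 libraries, Flt3 and Cd27 were the closest pair (0.12), then Cd27 and Il12a (0.14) and Flt3 and Il12a (0.15). Cd53 and Mn1 were the farthest apart (1.01). The median over the 9 genes of the log2 difference from the wildtype mean was 0.91, 0.88 and 0.91 in the cluster KO libraries.

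Levels per transcript length spanned more than 2 orders of magnitude. On the scale of CPM per kilobase of the longest protein-coding transcript, Ly6d came first in both genotypes, with 206 ± 29.3 in cluster KO and 90.8 ± 22.5 in wildtype (SD, n = 3 each). Cd53 followed with 143.2 ± 15.1 in cluster KO and 45.4 ± 7.82 in wildtype, and Cd27 with 82.7 ± 8.82 in cluster KO and 41.7 ± 4.21 in wildtype. Il12a had 55.4 ± 5.15 in cluster KO and 27.9 ± 4.76 in wildtype, below these 3 genes in both genotypes. Flt3 had 11.0 ± 0.606 in cluster KO and 5.72 ± 0.379 in wildtype, and Satb1 had 7.45 ± 1.23 in cluster KO and 6.36 ± 1.01 in wildtype. The 3 remaining genes were near 1 or under it, with Mn1 at 1.01 ± 0.0834 in cluster KO and 1.26 ± 0.178 in wildtype. Ccr9 was at 1.09 ± 0.374 in cluster KO and 0.603 ± 0.344 in wildtype, and Notch1 at 0.455 ± 0.0395 in cluster KO and 0.527 ± 0.0547 in wildtype. Neighbours in the order whose libraries overlapped were Ccr9 and Mn1 in cluster KO, and Cd53 and Cd27, Satb1 and Flt3, and Ccr9 and Notch1 in wildtype. With the median in place of the longest transcript, Cd27 moved above Cd53 in both genotypes, at 154.9 ± 16.5 against 143.2 ± 15.1 in cluster KO, and Satb1 moved above Flt3 in cluster KO, so these orders depend on the transcript taken.

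Other genes of lymphoid priming also moved, in both directions. Of 25 such genes outside the 9, 13 rose and 3 fell in cluster KO, with a median log2 fold change of 0.51, beside 15.9% and 12.1% of all tested genes and a median of 0.00. Dntt, the terminal transferase that diversifies antigen receptor joints, was at 326.9, 312.3 and 298.3 CPM in cluster KO libraries and 128.8, 123 and 133.1 CPM in wildtype libraries (edgeR, log2 fold change 1.28, SE 0.10, adjusted p = 0.000208). Lsp1, an actin-binding protein of leukocytes, changed by 1.49 (SE 0.15) and Spi1, which encodes PU.1, by 1.67 (SE 0.21) on the log2 scale. Il7r, the receptor that common lymphoid progenitors and early B cells depend on, rose by 1.11 (SE 0.19, adjusted p = 0.00372), while the genes of the lymphoid transcription factors E2A (Tcf3, -0.60, SE 0.12) and Ikaros (Ikzf1, -0.51, SE 0.13) and of the stem cell factor receptor (Kit, -0.34, SE 0.11) were the 3 that fell. Without any 1 of the wildtype libraries the fallen were 1. Il7r and these 3 were chosen after their values were seen. Without single wildtype libraries Ikzf1 missed the threshold, with adjusted p of up to 0.0651, and Kit missed it without any 1 of 5 libraries and with the size factors of DESeq2, with adjusted p of up to 0.737 over all settings.

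Of 21 tested genes of FLT3 signalling 2 rose and 4 fell in cluster KO, with a median log2 fold change of -0.20. The shares were 9.52% higher and 19.0% lower, beside 15.9% and 12.1% of all tested genes. Without cluster KO replicate 2 or any 1 of the wildtype libraries the fallen were 2, and Flt3l, the ligand gene, was not analysed here. Ptpn11, which encodes the phosphatase SHP2, was at 40.4, 36.0 and 25.0 CPM in cluster KO libraries and 59.9, 62.9 and 82.6 CPM in wildtype libraries (edgeR, log2 fold change -1.02, SE 0.20, adjusted p = 0.00638). The exchange factor gene Sos1 fell by 0.94 on the log2 scale (SE 0.21), but by 0.50 with an offset for length and GC content (adjusted p = 0.0761). The cytokine signalling inhibitors Socs1 (1.42, SE 0.33) and Socs2 (0.62, SE 0.17) rose, and Socs2 missed the threshold without any 1 of 4 libraries, with adjusted p of up to 0.0835. In the CD27 pathway, 1 of 7 tested genes rose, the adaptor gene Traf2 (0.61, SE 0.18), and 1 fell, Siva1, whose product binds the CD27 tail (-0.47, SE 0.11). The share was 14.3% in each direction, near that of all tested genes. Both missed the threshold without single libraries, Traf2 with adjusted p of up to 0.128 and Siva1 with up to 0.0652.

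Of 35 other tested genes of the Notch pathway 6 rose and 3 fell, with a median of -0.22. These shares, 17.1% higher and 8.57% lower, lay near the 15.9% and 12.1% of all tested genes, so the counts are no result about the pathway. None of the 4 ligand genes passed, and they had 399 reads in all over the 6 libraries. Of the receptors besides Notch1, Notch2 fell (edgeR, log2 fold change -0.98, SE 0.23) and Notch3 and Notch4 did not pass. Of the 9 genes for receptor cleavage the sheddases Adam10 (-0.49, SE 0.13) and Adam17 (-0.50, SE 0.15) fell, while Ncstn, which encodes a gamma-secretase subunit, rose (1.12, SE 0.34). Lfng, a Fringe glycosyltransferase that modifies Notch receptors, rose by 1.17 (SE 0.31). Of 8 tested target genes 3 rose, Hes1, Tcf7 (0.66, SE 0.15) and Gata3 (0.54, SE 0.16). Hes1, a repressor that Notch signalling induces in many tissues, was at 26.3, 27.9 and 28.3 CPM in cluster KO and 11.7, 12.5 and 12.1 CPM in wildtype libraries, with little spread within a genotype (edgeR, log2 fold change 1.19, SE 0.16, adjusted p = 0.00224). Hes1 passed under all 15 other settings, and the other 8 called genes of the pathway each missed the threshold under at least 1. Without single libraries the count of risen Notch pathway genes was 2 to 5 and that of fallen ones 0 to 6, with 0 fallen without cluster KO replicate 2 or wildtype replicate 3. Adam17, Ncstn, Lfng and Gata3 were chosen after their values were seen.

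Of 16 other tetraspanin genes, 10 rose and 0 fell in cluster KO, with a median of 0.58, and without cluster KO replicate 2 the count was 5 and without wildtype replicate 2 it was 6. Cd82, a tetraspanin of stem cells and leukocytes, was at 53.2, 62.7 and 88.7 CPM in cluster KO libraries and 26.1, 20.3 and 16.6 CPM in wildtype libraries (edgeR, log2 fold change 1.70, SE 0.23, adjusted p = 0.00217). Cd81, a tetraspanin of B cells and many other cells, changed by 0.97 (SE 0.15), Tspan31 by 1.33 (SE 0.22) and Tspan3 by 0.71 (SE 0.12) on the log2 scale. Of 8 tested genes of the Ly6 family outside Ly6d, 3 rose: Ly6e (0.80, SE 0.11), Ly6g of neutrophils (0.94, SE 0.24) and Ly6a, which encodes the stem cell antigen SCA-1 (0.37, SE 0.10). The family has closely related copies, and HTSeq sets reads that align to more than 1 place apart in a summary row, which was left out. The count of risen Ly6 genes was 1 without cluster KO replicate 2, wildtype replicate 1 or wildtype replicate 2. Ly6g and Ly6a missed the threshold without single libraries, with adjusted p of up to 0.0633 and 0.116 there. The shares higher were 62.5% of the tetraspanin and 37.5% of the Ly6 genes, beside 15.9% of all tested genes.

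Of 9 tested genes of the IL-12 family, its receptors and their kinases, Ebi3 rose as given above and Stat4, the factor that IL-12 activates, rose by 0.68 (SE 0.19), but missed the threshold without any 1 of 5 libraries (adjusted p of up to 0.0962). None fell, though 1 did without cluster KO replicate 1. The share higher was 22.2% of the 9, beside 15.9% of all tested genes. Around Ccr9, 2 of 5 tested homing genes rose, Ccr7 (1.89, SE 0.50) and Cxcr4 (0.60, SE 0.20), and without single libraries their adjusted p ran up to 0.0858 and 0.161. None of the 5 fell, though 1 did without cluster KO replicate 1. Among 10 genes of the Hoxa and Meis1 programme with which Mn1 is studied, 3 rose, with Hoxa7 (0.82, SE 0.20) and Hoxa10 (0.77, SE 0.23) first by p, and Zfp36l2 (-0.63, SE 0.15) and Ccl9 (-0.62, SE 0.18) fell. Without cluster KO replicate 2 or wildtype replicate 1 the risen were 0, and without wildtype replicate 3 the fallen were 0. Of 8 chromatin and repressor genes related to Satb1, Rora (1.08, SE 0.16) and Hdac1 (1.14, SE 0.21) rose and 0 fell, though 3 fell without cluster KO replicate 1. These 2 are 25.0% of the 8, beside 15.9% of all tested genes higher. Of 20 genes of myeloid, erythroid and megakaryocyte priming, 0 rose and 6 fell (30.0%, beside 12.1% of all tested genes), led by Itga2b (-1.30, SE 0.15), Pf4 (-1.86, SE 0.27), the GATA1 cofactor Zfpm1 (-0.88, SE 0.13) and Gata2 (-0.68, SE 0.12), and the risen were 3 without cluster KO replicate 1 and 1 without cluster KO replicate 3 or wildtype replicate 2.

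**Figure D3:**
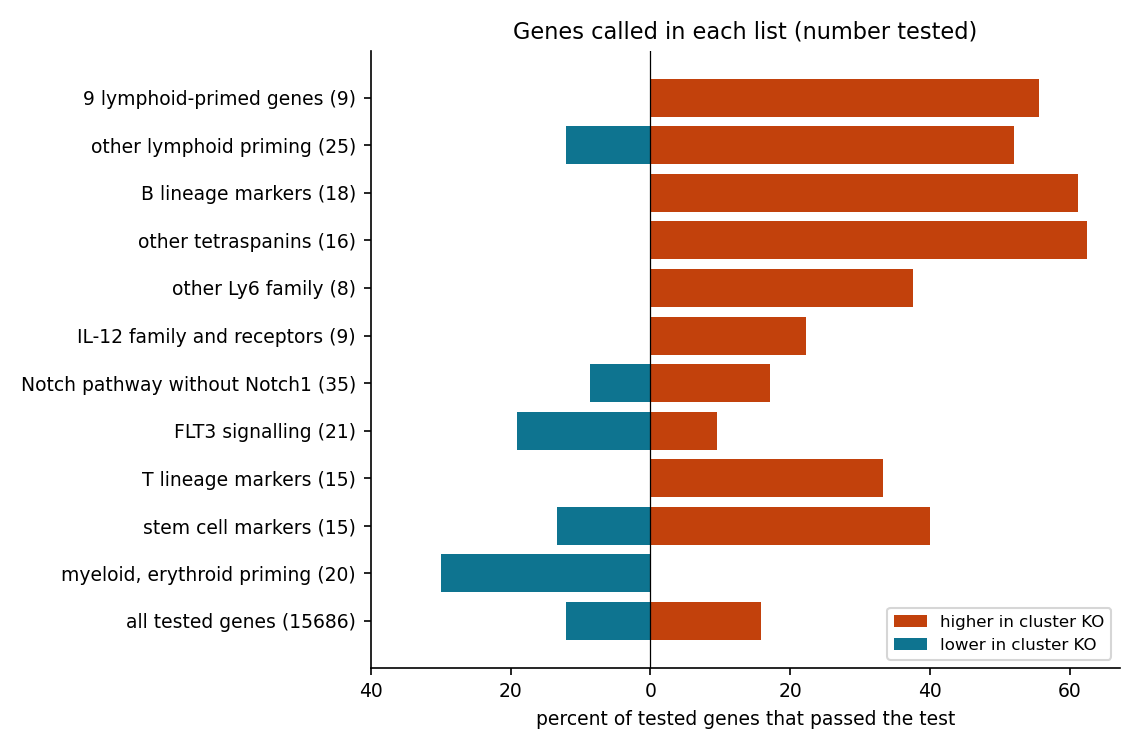
Percent of tested genes in each list that passed the test (edgeR, adjusted p under 0.05), with genes higher in cluster KO to the right and lower to the left of 0, and the number tested in brackets. The 9 lymphoid-primed genes had 5 higher and 0 lower, other lymphoid priming genes 13 and 3 of 25, and all tested genes 15.9% and 12.1%.

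Several of the 9 genes are also transcribed by more mature lymphoid cells. Marker counts in this paragraph stand beside 15.9% of all tested genes higher and 12.1% lower. Of 18 B lineage markers 11 rose and 0 fell, with a median log2 fold change of 1.23, and none was at 0. Their summed level was 3009 to 3134 CPM in cluster KO libraries and 1438 to 1501 CPM in wildtype libraries. The 3 with the smallest p were Cd79a (edgeR, log2 fold change 2.20, SE 0.11), the surrogate light chain gene Igll1 (1.58, SE 0.10) and Cd79b (1.56, SE 0.11). All 18 had positive log2 fold changes, but 7 did not pass, among them Pax5 (edgeR, adjusted p = 0.103), Fcrla, Ms4a1 and Cd22. Ms4a1 averaged 6.57 CPM in cluster KO and 5.26 CPM in wildtype, and Cd22 2.87 and 1.36 CPM. The 11 rises therefore do not extend to each B cell gene of the list. The B lineage list shares Ebf1, Rag1 and Rag2 with the other lymphoid priming genes. Of 15 tested T lineage markers 5 rose and 0 fell (3 rose without cluster KO replicate 2, wildtype replicate 2 or wildtype replicate 3, and 1 fell without cluster KO replicate 1 or wildtype replicate 2), with sums of 345.4 to 401.4 CPM in cluster KO against 199.4 to 226.1 CPM in wildtype. The risen T lineage markers included Trbc1, Lat and Lck, which had the highest levels of that list. Their means were 136.5, 81.3 and 76 CPM in cluster KO and 71.4, 46.2 and 40.7 CPM in wildtype. The 10 other tested markers, among them Cd3d, Cd3g, Trac, Cd4 and Bcl11b, did not pass. Of the 15, 9 had a positive log2 fold change. Cd3e, a defining T cell gene, had 40, 18 and 2 counts in cluster KO and 30, 4 and 4 in wildtype libraries. Of 12 tested plasmacytoid dendritic cell markers 2 rose, or 16.7% beside 15.9% of all tested genes (0 without cluster KO replicate 3 or wildtype replicate 2), with sums of 343.8 to 441.7 CPM in cluster KO against 321.4 to 339.8 CPM in wildtype, and of 10 tested conventional dendritic cell markers 3 rose, with sums of 550.8 to 658.7 CPM in cluster KO against 262.4 to 335.9 CPM in wildtype. These 3 were Cd74, H2-Aa and H2-Ab1, genes of MHC class II presentation that B cells also transcribe, and the 7 other tested markers of that list, among them Xcr1, Clec9a, Batf3 and Zbtb46, did not pass. Of 8 tested NK cell markers 0 rose and 1 fell (0 without cluster KO replicate 3, wildtype replicate 1 or wildtype replicate 2, and 2 without wildtype replicate 3), with sums of 287.3 to 403 CPM in cluster KO against 305.8 to 441.2 CPM in wildtype. Of 15 stem cell markers 6 rose and 2 fell, with sums of 1885 to 1893 CPM in cluster KO against 1586 to 1624 CPM in wildtype, and the risen were 1 without wildtype replicate 2, 2 without cluster KO replicate 2 or wildtype replicate 3 and 3 without wildtype replicate 1. The part of other cell types in the rise of the 9 genes was not tested.

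Set against the summed B lineage markers, most of the risen genes no longer stood apart. A large part of this sum is Cd24a, which averaged 724.4 CPM in cluster KO and 676.4 CPM in wildtype. Cd24a did not pass (edgeR, log2 fold change 0.10, SE 0.09, adjusted p = 0.447). Which genes overlap on this scale therefore depends on its weight, and ratios without it were not computed. Per 1000 CPM of these markers Flt3 was at 12.8, 12.3 and 14.2 in cluster KO libraries and 15.6, 13.7 and 13.5 in wildtype libraries. Cd27 was at 37.1, 42.7 and 46.4 in cluster KO against 47.6, 47.5 and 38.2 in wildtype libraries, and Il12a at 22.5, 25.5 and 22.5 in cluster KO against 29.9, 24.4 and 20.4 in wildtype libraries. Both overlapped, as Flt3 did. Ly6d, at 57.0, 49.4 and 43.4 in cluster KO against 37.4, 43.1 and 57.5 in wildtype libraries, also overlapped. Cd53 was at 76.6, 74.9 and 93.0 in cluster KO libraries against 61.4, 43.6 and 56.9 in wildtype libraries, still without overlap. Satb1, Notch1 and Mn1 were lower in each cluster KO library than in each wildtype library on this scale, with log2 ratios of the means of -0.84, -1.28 and -1.39.

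Set against the summed stem cell markers, the same 5 genes stayed above wildtype in each cluster KO library. Per 1000 CPM of the stem cell markers Flt3 was at 20.8, 20.4 and 22.7 in cluster KO libraries and 13.9, 12.6 and 12.5 in wildtype libraries. The log2 ratios of the means were 0.71 for Flt3, 0.76 for Cd27, 1.43 for Cd53, 0.76 for Il12a and 0.95 for Ly6d. Satb1 had a log2 ratio of 0.00, and Notch1 (-0.45) and Mn1 (-0.55) lay below wildtype in each cluster KO library. Set against the summed T lineage markers, Flt3, Cd27, Il12a and Ly6d overlapped between the genotypes and Cd53 lay above wildtype, with a log2 ratio of 0.89, while Satb1 (-0.56), Notch1 (-0.99) and Mn1 (-1.10) lay below. Both lymphoid sums had themselves risen without overlap. The B lineage sum was 3009 to 3134 CPM in cluster KO against 1438 to 1501 CPM in wildtype. For T lineage markers it was 345.4 to 401.4 against 199.4 to 226.1 CPM. The stem cell sum differed less, at 1885 to 1893 against 1586 to 1624 CPM. Where separation was lost or kept therefore follows from the sizes of these rises, and the part of lymphoid cells was not tested. These ratios were chosen after the values were seen and carry no test.

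**Figure D4:**
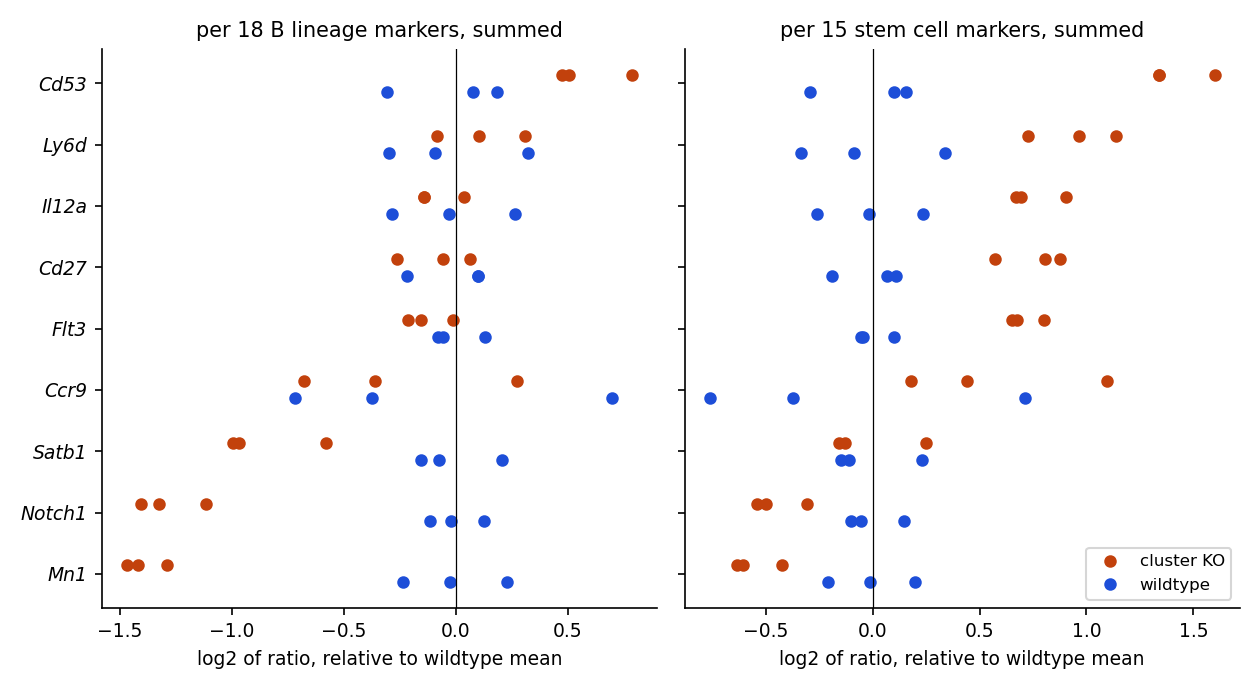
Level of each of the 9 genes divided by the summed level of 18 B lineage markers (left) or 15 stem cell markers (right), as the log2 of the ratio relative to its wildtype mean, with 1 point per library. Cluster KO and wildtype points overlap on the left for Flt3, Cd27, Il12a and Ly6d but not for Cd53, and all 5 genes are above wildtype on the right.

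Some genes outside the list followed the risen genes closely across the 6 libraries. Among 8462 autosomal protein-coding genes with a mean of at least 10 CPM, the smallest root mean square differences from Flt3 in centred log2 CPM were those of Zbtb25 (0.04), Glrx (0.04) and Med27 (0.06). Ica1 (0.05), Trim30b (0.05) and Tmem138 (0.06) were closest to Cd27, and Arhgdib, Hmces and Ldhb (0.07, 0.07 and 0.08) to Il12a. For Ly6d they were Arpp21 (0.08), Nedd9 (0.12) and Rsph9 (0.13), and for Cd53 they were Rogdi (0.09), Slfn2 (0.11) and Pilra (0.13). Each of these 15 genes had itself risen, with log2 fold changes between 0.86 and 1.76, since the measure takes in the difference between the genotypes, and Arpp21 had an adjusted p of 0.0503 without wildtype replicate 2. The 5 risen genes kept their calls under all 15 other settings, and the other 4 gained none.

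**Figure D5:**
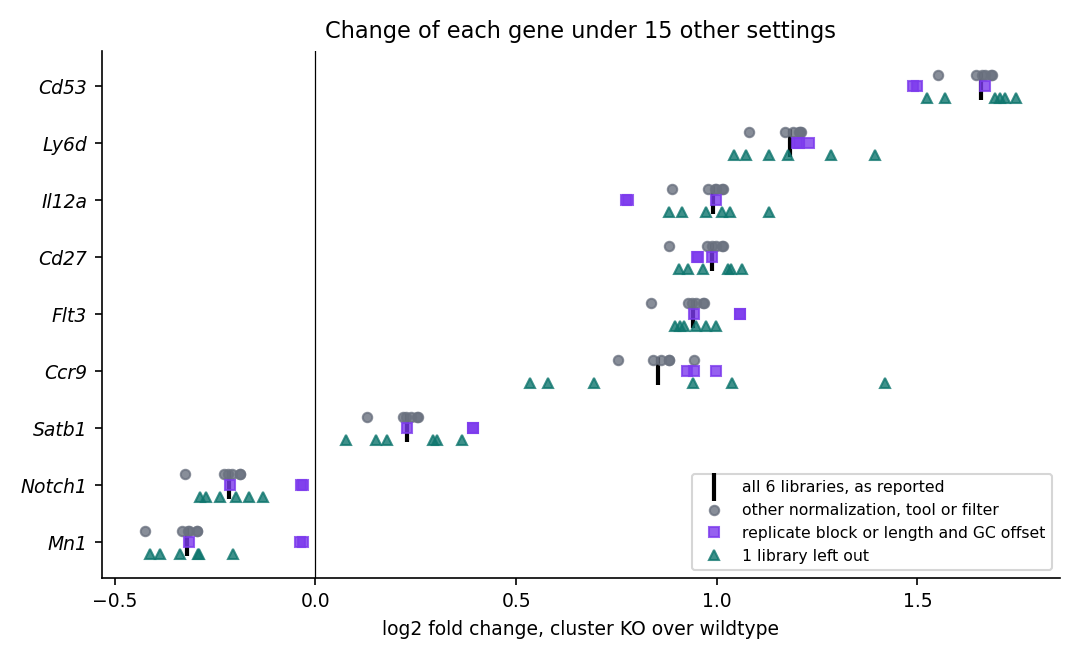
Log2 fold change (cluster KO over wildtype) of each of the 9 genes with all 6 libraries (black bars) and under 15 other settings, grouped as 1 library left out, a replicate block or a length and GC offset, and another normalization, tool or filter. Flt3 ranged from 0.84 to 1.06, Cd53 from 1.49 to 1.75 and Ly6d from 1.04 to 1.40, while Ccr9 spread from 0.54 to 1.42.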

How the data were processed

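The deposited table holds raw read counts per Ensembl gene, 1 column per library, with no normalization by the authors, as the values show. Per the labels' protocols, poly(A) RNA of bone marrow was made into Nextera XT libraries that keep no strand, and the submitters' processing notes name bcl2fastq, TopHat2, HTSeq and mm10. The sources used here do not give versions, the annotation release or the counting mode. The 5 HTSeq summary rows, 23.4 to 30.8% of reads per library, were left out. Names, positions and transcripts came from GENCODE M21 (GRCm38), promoters from RefSeq.

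The comparison was fitted with edgeR 4.0.16 in R 4.3.3: filterByExpr (minimum count 10), TMM, a robust quasi-likelihood fit on genotype and Benjamini-Hochberg adjustment at 0.05. The SE is the size of the log2 fold change over the square root of F. Libraries of 1 genotype differed beyond sampling noise in every pair (chi-square per degree of freedom 12.2 to 71.4). The fit was tested on simulated data. The genes, the 23 other lists, the naming rule (all 9 genes, up to 4 called genes per list, 4 ligand or partner genes, 3 genes most like each risen one) and the tests were chosen with earlier results of these data known. Alternatives were 2 other scalings, DESeq2 1.42.0, limma-voom (limma 3.58.1), 2 other filters, a replicate block, a length and GC offset (splines with 5 degrees of freedom), both together, and leaving out each library. Some genes of the lists are counted but not reported here by name.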

Additional observations from a re-analysis of the deposited data

How the results depend on the processing

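The 9 lymphoid-primed genes gave 5 higher and 0 lower under each of the 15 alternatives. Over all genes, 4382 passed (2487 higher, 1895 lower), and without single libraries 2000 to 5730 passed (1258 to 3151 higher, 742 to 2579 lower), of which 2000 without cluster KO replicate 2, 2163 without wildtype replicate 3 and 2356 without wildtype replicate 2. With a replicate block 2196 passed (1331 higher, 865 lower), and with the block and the length and GC offset 2020 (1150 and 870). Of the genes on the other lists 104 passed, 66 with the block and offset and 64 to 119 without single libraries. The cause was not tested. The replicate numbers only name the libraries: same-numbered libraries deviated from their group means with correlations of -0.12, 0.02 and -0.09. Upper-quartile scaling shifted the median of all genes by -0.10 on the log2 scale and left 46.6% of the calls higher, against 56.8% with TMM. Ccl25 lay between -0.16 and 0.15 without single libraries, and turned to 0.01 without cluster KO replicate 3 and 0.15 without wildtype replicate 2, none past the threshold. Of the 95 other named genes 40 missed the threshold under at least 1 alternative, and 193 of 1425 values did so in all. Ccr9, Notch1 and Mn1 had 41 to 220 reads a library, and the part of depth in their missing calls was not tested.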

Other observations

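Markers of cells outside the lymphoid lineages were counted in the same way, beside 15.9% of all tested genes higher and 12.1% lower. Of 14 neutrophil markers 5 rose and 0 fell in cluster KO, with sums of 11180 to 21050 CPM in cluster KO and 6565 to 12440 CPM in wildtype libraries, which overlap. Of 12 monocyte and macrophage markers 3 rose (1 without wildtype replicate 2, and 6 with DESeq2) and 0 fell (1 without cluster KO replicate 1), with sums of 130.0 to 157.1 CPM in cluster KO against 94.2 to 102.7 CPM in wildtype. Of 13 erythroid markers 0 rose and 6 fell (3 fell without wildtype replicate 2 or 3, and 2 rose without cluster KO replicate 1 and 1 with DESeq2), with sums of 7289 to 10510 CPM in cluster KO and 8178 to 8944 CPM in wildtype libraries. Of 10 tested megakaryocyte and platelet markers 1 rose and 3 fell, with sums of 299 to 305.4 CPM in cluster KO against 444 to 543.6 CPM in wildtype, and the 1 rise was lost without any 1 of 5 libraries. Of 8 tested mast cell and basophil markers 3 rose and 1 fell, and of 9 tested stromal and endothelial markers 2 rose (0 without cluster KO replicate 2 or wildtype replicate 3). Their part in the levels of the 9 genes was not tested.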
